A study of Arabidopsis thaliana with 6 samples.

Results

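The transcripts described here are those of the plastid genome, the small circular genome that chloroplasts and the unpigmented plastids of roots both carry. They are the 87 rows of the deposited table whose identifier starts with ATCG, out of 37118 rows (transcript models of 32627 loci). RNA came from roots of Arabidopsis thaliana grown for 12 days on diluted Murashige and Skoog medium. On 3 plates the whole seedling was lit with white light (75 µmol/m2/s), which the labels call the control. On the other 3 plates the shoots had the same light while the roots were kept dark. Each plate gave 1 array, and the labels name no mutant, transgene or strain. The comparison asks which root transcripts depend on light that reaches the root itself.

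The plastid genome encodes core subunits of photosystems I and II, the cytochrome b6f complex, the ATP synthase and the NDH complex, the large subunit of Rubisco, and much of the plastid's own gene expression apparatus. Most of the photosynthetic complexes are assembled from plastid-encoded and nucleus-encoded subunits together. Photosynthesis genes of the plastid are transcribed mainly by the plastid-encoded RNA polymerase (PEP), which needs nucleus-encoded sigma factors to find its promoters, while a nucleus-encoded phage-type polymerase serves many housekeeping genes. Plastid genes are commonly transcribed in long shared units that are processed afterwards, so neighbouring rows need not be independent. The RefSeq table of the TAIR10.1 assembly lists 129 plastid entries, among them 15 with the symbol prefix psb (photosystem II), 5 psa (photosystem I), 6 pet (cytochrome b6f), 6 atp (ATP synthase), 12 ndh (NDH), 4 rpo (RNA polymerase), 25 ribosomal protein (rps and rpl), 35 trn (transfer RNA) and 3 rrn (ribosomal RNA) entries. That table holds none of the array's identifiers for these rows (0 of 87 matched), and the deposited table gives no names. The rows are therefore given by identifier, without the suffix _1 that all 87 carry, and they were not sorted into these functional classes.

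Values are log2 intensities between 4.70 and 15.92, and the array reports a brightness per row, not a number of transcripts. The sorted values of the 6 arrays differed by at most 0.01. Array values correlated at 0.988 to 0.995 within groups and at 0.981 to 0.989 between groups across rows, which are not independent replicates. All 12 root markers had means between 9.97 and 15.8. Of 14 shoot markers 10 had means under 8, in the low part of the scale, among them the stomatal genes SPCH, MUTE and FMA (FAMA). The other 4 were well above, with means of 14.01 for PDF1, 12.26 for KNAT1, 12.03 for CER1 and 11.71 for ATML1. The log2 of the summed intensities of all 14, which these 4 dominate, was 14.7 to 15.0 in dark and 14.9 to 15.1 in light arrays, and the meristem genes KNAT1 and STM differed by 1.13 and -0.84 (adjusted p = 0.0147 and 0.0202 in limma). What part shoot tissue had in the plastid values was not tested.

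No plastid row differed between light-grown and dark-grown roots at an adjusted p under 0.05 in limma, against 5.65% of all rows (3.22% higher and 2.43% lower in light). At an unadjusted p under 0.05, 8 plastid rows were higher in light and 0 were lower, where 8.99% of all rows were higher and 12.2% lower, so the share of higher rows was near the background. Differences (light minus dark, log2 scale) ran from -0.35 in ATCG01110 to 0.72 in ATCG00330. Their median was 0.08, against -0.02 over all rows, and 57 of the 87 were above 0, as were 46.8% of all rows. Without light replicate 3 the median was 0.00, with 45 rows above 0 and 42 below. Without both arrays numbered 3, an alternative chosen after seeing the data, it was 0.09, with 64 rows above 0 and 23 below. In whole roots, the number of plastids or plastid-rich cells and the amount of RNA per plastid cannot be told apart.

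The level itself limits what could be seen. Of the 87 plastid rows, 28 had a mean within 1 log2 unit of the highest value, 15.92, and therefore lay near the top of the scale. That is 32.2%, where 13.2% of all rows lay in that range. The nearest row inside this range was ATCG00770 with a mean of 15.05 and the nearest outside was ATCG00280 with 14.89. A row near the top had 0.23 to 0.87 log2 units between its dark mean and the highest value, so the scale allowed rises of 1.17-fold to 1.83-fold and no more. In 27 of these 28 rows the difference was under 0.2 in size, with a median size of 0.07, while the 59 rows below had a median size of 0.27. A small difference near the top does not show that the transcript level was the same in both groups.

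**Figure D1:**
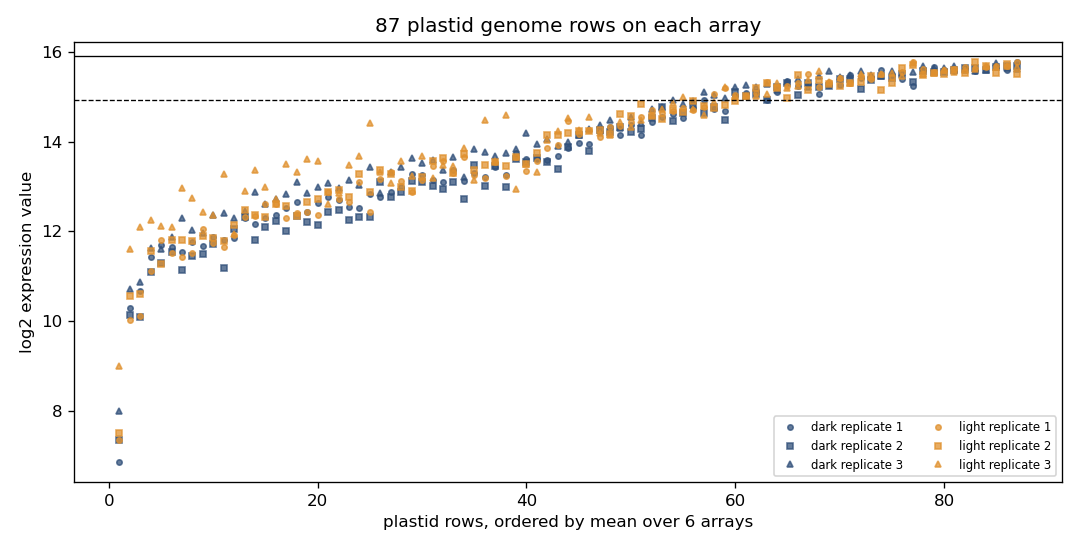
Each of the 87 plastid rows is plotted at its log2 expression value (y axis) on the 3 dark and 3 light arrays, with rows ordered by their mean (x axis). The solid line marks the highest value, 15.92, and the dashed line the value 1 log2 unit below it, above which the means of 28 rows lie.

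In 70 of the 87 rows the 95% interval of the difference lay between -1 and 1, which excludes a change of 2-fold or more on this scale for that row taken alone, and 79.8% of all rows met the same condition. The 70 include all 28 rows near the top, where the scale leaves no room for a 2-fold rise. Of the 59 rows below, 42 met it, against 76.8% of all rows in that range. The upper bound alone was under 1 in the same 70 rows (88.0% of all rows), and the lower bound was above -1 in 86 (89.1% of all rows). The other 17 rows had an upper bound of 1 or more. Of these, 13 were rows in which light replicate 3 exceeded the mean of light replicates 1 and 2 by over 1. ATCG00910 was the 1 row whose interval reached below -1 (-1.03 to 1.79).

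**Figure D2:**
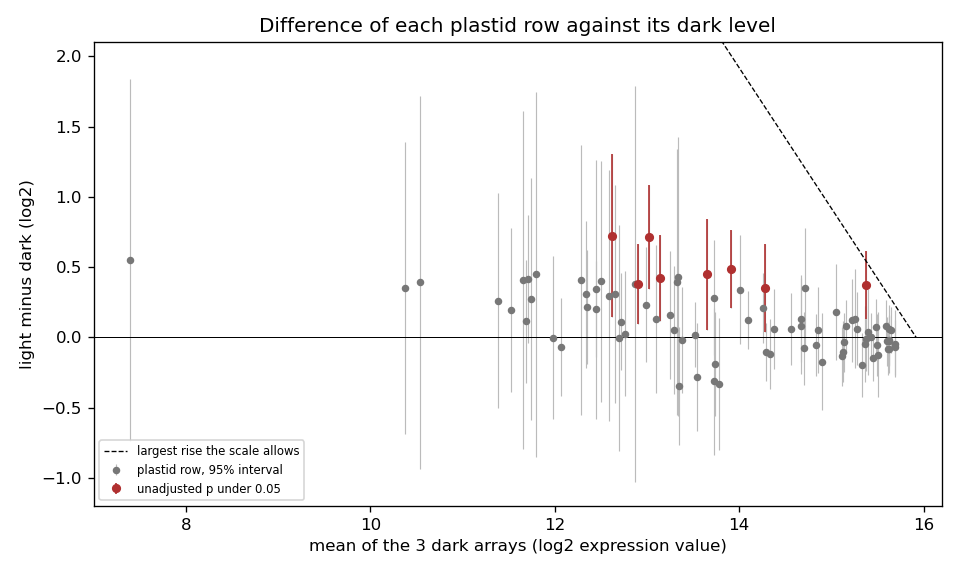
For each plastid row the difference between light and dark (y axis, log2) is plotted against the mean of the 3 dark arrays (x axis, log2 expression value), with limma's 95% interval as a bar. The 8 rows with an unadjusted p under 0.05 are in red and all lie above 0. The dashed line is the largest rise the scale allows, and the points close in on 0 as they near it.

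The row with the lowest p was ATCG00270, chosen like the other rows named here after its values were seen. Its values were 13.13, 12.73 and 13.22 on the dark arrays and 13.65, 13.72 and 13.86 on the light arrays. All light arrays lay above all dark arrays. The means were 13.03 ± 0.26 and 13.74 ± 0.11 (SD, n = 3), a difference of 0.72 (SE 0.15, 95% interval 0.35 to 1.09, adjusted p = 0.0543 in limma), which did not pass.

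ATCG00680 came next, at 13.85, 13.89 and 14 in dark and 14.47, 14.20 and 14.53 in light. The groups did not overlap, and the dark arrays lay close together. The difference was 0.49 (SE 0.11, adjusted p = 0.0704 in limma). Both rows passed when rows below the 25th percentile of signal were left out before the adjustment (adjusted p = 0.0306 and 0.0384). In that fit 2 of the 87 plastid rows were higher, where 5.70% of all rows kept were.

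ATCG00020 lay near the top of the scale, at 15.25, 15.33 and 15.55 in dark and 15.77, 15.72 and 15.76 in light. The light arrays were nearly equal, just under the highest value of the table, and all above the dark arrays. The difference was 0.37 (SE 0.10, adjusted p = 0.0984 in limma). The dark mean of 15.38 left 0.54 to the highest value, so the measured difference took up most of the range open to it. It was the largest difference among the 28 rows near the top.

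ATCG00300 was at 13.10, 12.95 and 13.37 in dark and 13.57, 13.63 and 13.49 in light, a difference of 0.42 (SE 0.12, adjusted p = 0.125 in limma). With a variance prior that follows the signal and is robust to outlying variances, this row and the 3 before it passed, with adjusted p = 0.00799 for ATCG00270, 0.0133 for ATCG00680, 0.0117 for ATCG00020 and 0.0445 for ATCG00300. Under that prior 4.99% of all rows were higher in light and 5.06% lower, and 0 plastid rows were lower. Whether these 4 rows are called thus depends on the variance prior.

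The other 4 rows with an unadjusted p under 0.05 were ATCG00390, ATCG00330, ATCG01040 and ATCG00220, with differences of 0.38, 0.72, 0.45 and 0.35 and adjusted p = 0.134, 0.155, 0.185 and 0.193 in limma. ATCG00330 had a difference as large as that of ATCG00270 but spread more, at 12.52, 12.32 and 13.04 in dark and 13.11, 13.27 and 13.67 in light. In ATCG00220 the values were 14.14, 14.29 and 14.41 in dark and 14.56, 14.84 and 14.49 in light. All 8 rows had light arrays entirely above dark arrays. Without light replicate 3 all 8 differences were still above 0, and 6 kept an unadjusted p under 0.05. On those 5 arrays 8.62% of all rows were higher at that level and 10.9% lower.

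**Figure D3:**
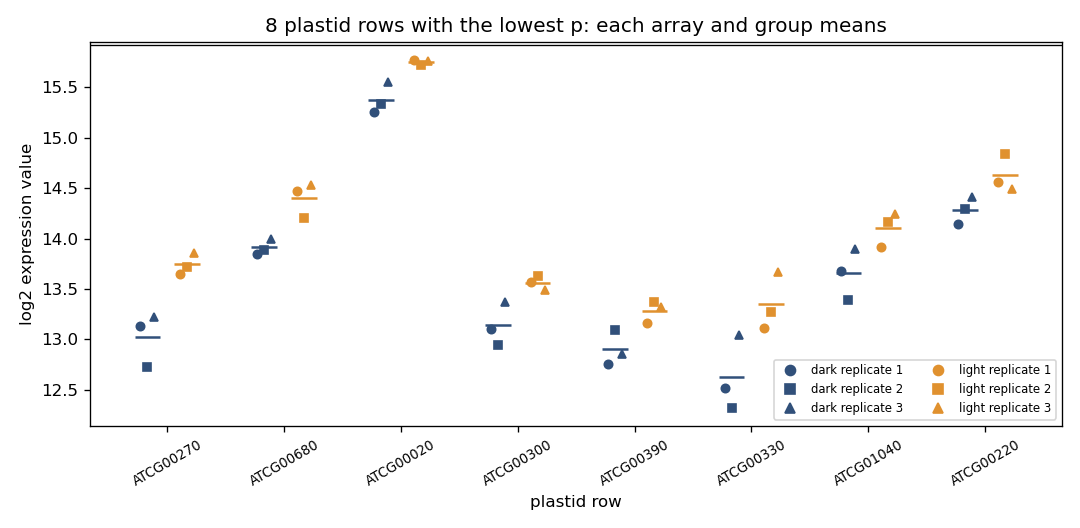
The log2 expression value (y axis) of the 8 plastid rows with the lowest p (x axis) is shown for each array, with dark arrays in blue, light arrays in orange and the group mean as a bar. In each row the 3 light arrays lie above the 3 dark arrays, and ATCG00020 in light sits just under the highest value of the table, drawn as a line.

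Counted over all 87 rows, 10 had light arrays entirely above dark arrays, where 12.0% of all rows did, and 4 had light arrays entirely below, where 16.4% did. The 2 further rows above were ATCG00580 and ATCG00470, with differences of 0.21 and 0.12. The 4 rows below were ATCG00500 (-0.20), ATCG00780 (-0.14), ATCG00670 (-0.08) and ATCG00170 (-0.33), of which the first 3 lay near the top of the scale. ATCG00500 was at 15.36, 15.31 and 15.34 in dark and 15.24, 14.98 and 15.20 in light (adjusted p = 0.305 in limma). ATCG00170 was at 13.61, 13.54 and 14.20 in dark and 13.35, 13.51 and 13.50 in light, and without both arrays numbered 3 its difference was -0.145. The most negative difference, -0.35 in ATCG01110, came from groups that overlapped (13.27, 13.13 and 13.63 against 12.87, 12.89 and 13.23), and without light replicate 3 it was -0.46 with an adjusted p of 0.231 in limma, the 1 plastid row that was lower at an unadjusted p under 0.05 on those arrays.

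The arrays numbered 3 stood apart in the plastid rows. Dark replicate 3 was above both other dark arrays in 72 of the 87 rows, where 35.1% of all rows were, and light replicate 3 was above both other light arrays in 44, where 35.9% were. Both held at once in 40 plastid rows, against 18.3% of all rows. The median of the plastid rows was 13.85, 13.80 and 14.16 on dark replicates 1 to 3 and 14.10, 14.17 and 14.33 on light replicates 1 to 3. In each group the array numbered 3 was thus the highest, and the other dark arrays were the lowest of all.

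The excess on light replicate 3 was over 1 log2 unit in 13 plastid rows, where 3.58% of all rows had one as large. Their means lay between 7.67 and 13.6, and light replicate 3 was the highest of the 6 arrays in all 13. ATCG00910 was at 12.83, 12.33 and 13.44 in dark and 12.44, 12.88 and 14.42 in light. ATCG00320 was at 10.66, 10.08 and 10.87 in dark and 10.11, 10.59 and 12.09 in light. In both rows light replicates 1 and 2 lay inside the range of the dark arrays. The dimmest plastid row, ATCG01030, was at 6.85, 7.35 and 7.98 in dark and 7.34, 7.50 and 9.0 in light. Over the 13 rows the differences were 0.27 to 0.55, and without light replicate 3 they were -0.21 to 0.07, with 8 below 0 and 5 above. Dark replicate 3 was high in the same rows, by 0.44 to 0.97 above the mean of the other dark arrays. Without both arrays numbered 3 the differences ran from -0.02 in ATCG00320 to 0.365 in ATCG00870, with ATCG00320 alone below 0.

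Identifiers with adjacent numbers recur among these 13 rows. ATCG00850, ATCG00870, ATCG00880, ATCG00890 and ATCG00910 all belong to them, and in ATCG00860, the row numbered between the first and second, light replicate 3 was at 13.47 against 12.65 and 12.76 on the other light arrays. ATCG00890 was at 11.53, 11.13 and 12.30 in dark and 11.42, 11.80 and 12.97 in light. In contrast ATCG00900, numbered between these, was near the top of the scale, at 15.50, 15.15 and 15.51 in light. Some rows were nearly equal throughout: ATCG00990 and ATCG01140 differed by at most 0.11 on any array and ATCG00850 and ATCG01290 by at most 0.16. Of the 1711 pairs among the 59 rows below the top range, 6 differed by at most 0.2 on all 6 arrays. These pairs are not independent measurements if their probes share sequence, which was not tested.

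By level, the excess on light replicate 3 had a median of 0.92 in the 9 plastid rows with means from 10 to 12, 0.64 in the 14 rows from 12 to 13, 0.07 in the 19 rows from 13 to 14, 0.00 in the 16 rows from 14 to the top range and 0.01 in the 28 rows near the top. The dimmer plastid rows thus carried the excess. The median difference between light and dark was 0.27, 0.30, 0.16, 0.07 and -0.02 in the same classes, and -0.05, 0.05, 0.01, 0.07 and -0.02 without light replicate 3. The first 3 classes were nearer to 0 on the remaining 5 arrays, and the class from 14 to the top range was not. The classes from 10 to 12 and from 12 to 13 had the largest excess of these on the array left out. Their fall follows from that excess and is not a separate result. Dark replicate 3 was kept in this comparison.

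The 107 rows of the mitochondrial genome, the other organelle genome of the root cell, were also highest in median on the arrays numbered 3 of each group. Their median level was 12.58, 12.29 and 12.97 on dark replicates 1 to 3 and 12.59, 12.68 and 13.34 on light replicates 1 to 3, with a median excess of 0.72 on light replicate 3, where the plastid rows had 0.07. Their median difference was 0.21, and it was 0.00 without light replicate 3 and 0.135 without both arrays numbered 3. In limma 0 of 107 passed, where 5.65% of all rows did. An unadjusted p under 0.05 was found in 1 of them, where 8.99% of all rows were higher and 12.2% lower at that level. What sets these arrays apart was not tested.

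**Figure D4:**
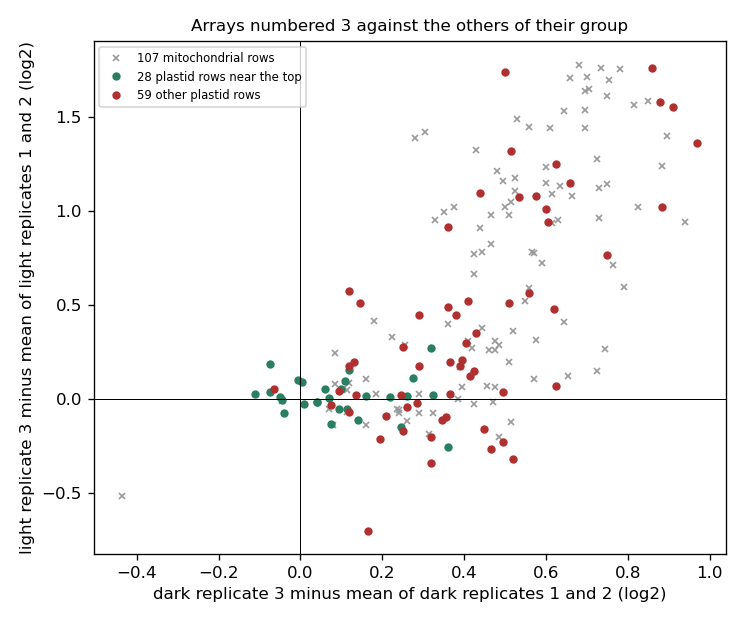
For each row the excess of light replicate 3 over the mean of light replicates 1 and 2 (y axis, log2) is plotted against the same excess of dark replicate 3 (x axis, log2). The 28 plastid rows near the top (green) stay close to 0, while 13 of the other plastid rows (red) exceed 1 on the y axis, within the range of the mitochondrial rows (grey crosses).

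Nucleus-encoded partners of the plastid-encoded proteins gave another picture in the same fit, with 93 genes in 8 lists. Photosystem subunits rose in light-grown roots: 11 of 12 for photosystem II and 10 of 12 for photosystem I, with medians of 1.62 and 1.85. None of these was called lower, and PSAD-2 was the 1 photosystem gene with a difference below 0 (-0.18). PSAD-1, on the stromal side of photosystem I where ferredoxin docks, was at 9.96, 10.25 and 10.50 in dark and 12.47, 12.14 and 12.30 in light, a 4.19-fold rise (adjusted p = 0.00308 in limma). PSAH-1 rose 4.42-fold and the antenna-linked subunit gene PSAK 3.70-fold. PETC, the Rieske iron-sulphur protein of cytochrome b6f, rose 4.04-fold, and the ATP synthase genes ATPC1 and ATPD rose 1.80-fold and 1.81-fold, which made 3 of 4 in their list (1 of 4 without dark replicate 1). Without both arrays numbered 3, which leaves 2 per group, 4 of 12 and 6 of 12 photosystem genes and 0 of these 4 were called. In that fit 313 of all rows were called higher, against 1196 in the reported fit. The medians of the 3 lists were then 1.65, 1.78 and 0.80. The highest difference of a plastid row on all 6 arrays was 0.72, and the test of that contrast between gene sets was not run. The sets also differed in level, with a median of 10.74 for photosystem II and 9.63 for photosystem I genes. That of the plastid rows was 14.16, which left them less room to rise. What part the level had in the contrast was not tested.

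Of 16 nuclear NDH genes 0 rose and NdhO fell (-0.61, adjusted p = 0.0454 in limma, not called without any 1 array), with a median of 0.11. Their levels ran from 5.73 to 15.2 with a median of 7.54, in the low part of the scale. Only 8 of them remained when rows below the 25th percentile of signal were left out. The lack of calls in the dim genes does not show that their transcripts were unchanged. Of 4 Rubisco small subunit genes, whose probes may read each other, RBCS1A rose 5.84-fold (adjusted p = 0.005 in limma) and RBCS3B differed by 0.67 without passing. Of 25 nuclear plastid ribosomal protein genes all 25 had differences above 0, with a median of 0.37, and 2 passed, RPL27 (0.57) and emb2184 (0.46). That count was 14 with the signal-dependent robust prior and 0 without dark replicate 1, 2 or 3 or light replicate 2 or 3. Without light replicate 1 it was 2, but RPL27 and emb2184 were not among them (adjusted p = 0.0619 and 0.0609 in limma). Neither of these genes was thus called without any 1 array. The list medians stand beside -0.02 for all rows.

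Among nucleus-encoded factors that drive plastid transcription, 2 sigma factor genes rose. SIG5 (SIGE in RefSeq), a sigma factor known for responses to light and stress, was at 12.78, 12.47 and 13.04 in dark and 14.33, 14.13 and 13.86 in light, a 2.54-fold rise (SE 0.19 on the log2 scale, adjusted p = 0.0179 in limma). SIG6 (SIGF), known for early chloroplast development in seedlings, was at 11.58, 11.57 and 11.67 in dark and 12.43, 12.45 and 12.53 in light, a 1.82-fold rise (adjusted p = 0.0036). In both genes the groups were well apart. SIG6 was called without any 1 array, while SIG5 missed the threshold without dark replicate 1 or 2 or light replicate 1 or 2 (adjusted p = 0.0779, 0.0545, 0.057 and 0.0732 in limma).

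SIG1 (SIGA), SIG2, SIG3 (SIGC) and SIG4 differed by 0.00, 0.09, -0.06 and -0.03. SCA3, a phage-type polymerase of plastids, was at 12.59 in both groups, and none of these genes passed the test. SIG4 lay in the low part of the scale, at 7.66 in dark and 7.63 in light. Its small difference does not show that the transcript was unchanged. RPOTmp, also planned for this list, is not among its 7 genes. Of 13 genes of PEP-associated proteins, which bind the plastid-encoded polymerase, 0 passed, where 5.65% of all rows did, and the median difference was 0.07. At an unadjusted p under 0.05, 3 were higher in light, where 8.99% of all rows were higher and 12.2% lower. The closest, PTAC7, was at 12.23, 12.30 and 12.42 in dark and 12.77, 12.88 and 13.19 in light, a difference of 0.63 (adjusted p = 0.0536 in limma). Without light replicate 3 the differences of SIG5 and SIG6 were 1.47 and 0.83, and both were still called. Without both arrays numbered 3 they were 1.605 and 0.865, and 0 of the 2 were called. In that fit 313 of all rows were called higher, against 1196 in the reported fit.

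**Figure D5:**
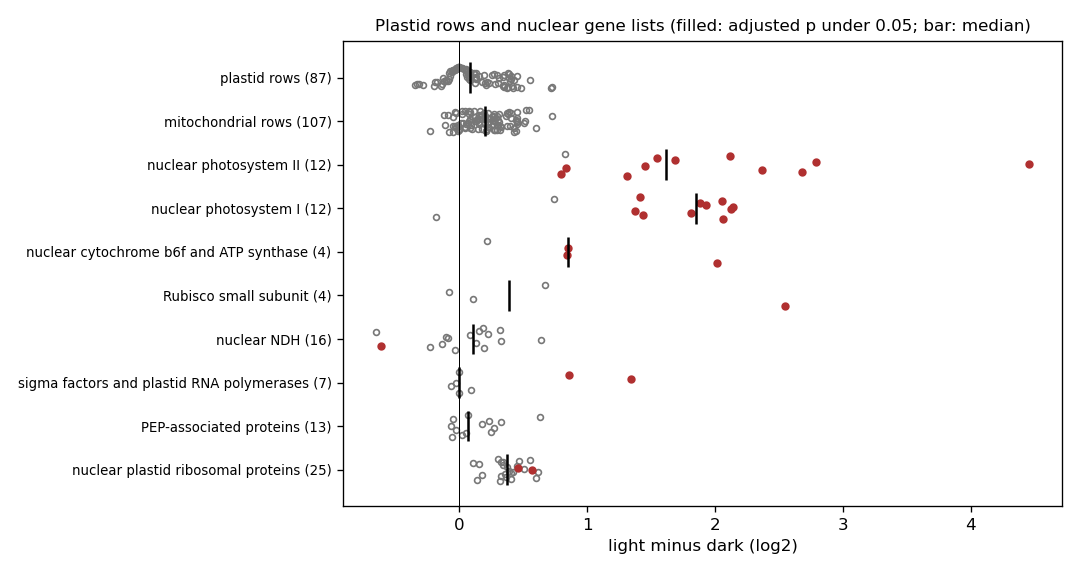
The difference between light and dark (x axis, log2) of each gene is shown for the plastid rows, the mitochondrial rows and 8 lists of nuclear genes (y axis, number of genes in brackets). Filled points passed at an adjusted p under 0.05 and the bar is the median. The photosystem lists lie far to the right, and no plastid or mitochondrial row is filled.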

How the data were processed

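Total root RNA was turned into double-stranded cDNA, dyed with Cy3 and hybridised to 1-colour NimbleGen arrays, per the labels' protocols. The priming of the cDNA, the background correction and the probe summary were not given in the sources used here. Deposited values are log2 expression values, quantile normalized by the authors as the equal sorted values show. The submitters' processing notes name limma.

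Light minus dark was fitted on all 37118 rows with limma 3.58.1 in R 4.3.3 (lmFit, eBayes, two-sided, Benjamini-Hochberg, threshold 0.05). Precision rests on 3 arrays per group. The fit was tested on simulated data. Nuclear genes were represented by their brightest model. Nuclear lists were compiled from general knowledge of the gene families, and their membership was not checked beyond a RefSeq symbol. Of 128 listed loci, 9 without a RefSeq symbol were left out. The members and lists were chosen with earlier results of these data known. The rule for named rows asked for the rows of lowest p in each functional class. Because the identifiers are not paired with names here, those classes and the duplicate rows of the inverted repeat could not be assigned, and rows were named by lowest p and largest difference. Figures used matplotlib 3.10.9. Alternatives are given in the closing section.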

Additional observations from a re-analysis of the deposited data

How the results depend on the processing

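Plastid rows called higher in light numbered 0 in the reported fit, 4 with the trend and robust variance prior and 2 with rows below the 25th percentile left out, and 0 under each other alternative. Those called lower numbered 0 under every alternative. The median difference of the plastid rows ranged from 0.00 (without light replicate 3) to 0.18 (without dark replicate 3). It was 0.09 without both arrays numbered 3, an alternative chosen after seeing the data, and 0.21 over the 59 rows left when rows near the top were removed. Within 0.5 log2 units of the highest value lay 15 plastid rows and within 2 lay 44, against 28 within 1. Nuclear partner genes higher in light numbered 29, 19 to 25 without any 1 array, 11 without both arrays numbered 3 and 19 at a threshold of 0.01. Over all rows the higher calls numbered 1196 in the reported fit and 313 without both arrays numbered 3. The 1 lower gene was not called (0) without any 1 array, without both arrays numbered 3, with the replicate block, with the trend and robust prior or at 0.01.

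The replicate numbers were checked as a pairing. Deviations from the group means correlated at 0.01 to 0.41 between arrays of the same number over all rows, and at -0.40 to 0.36 between other pairs. Over the plastid rows arrays of the same number correlated at 0.12, 0.49 and 0.67 for numbers 1, 2 and 3. Dark replicate 2 with light replicate 1 was at 0.66, and the remaining pairs were at -0.70 to -0.05. The plastid deviations thus partly followed the numbers. The labels name no batch, and the reported fit did not use the numbers as pairs. With a replicate block 0 plastid rows were called higher and 0 lower, the median difference was 0.08, 12 plastid rows were higher and 1 lower at an unadjusted p under 0.05 (9.42% and 12.2% of all rows), and 26 nuclear partner genes were higher. The block took the ribosomal protein calls from 2 to 0 and the sigma factor calls from 2 to 1, since SIG5 missed the threshold (adjusted p = 0.0755 in limma).

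Keeping 1 row per gene of the inverted repeat was not run, because the rows carry no names. Compression near the top of the scale and 3 arrays per group limit what these data can show, and no detection calls were used here.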
